A study of Mus musculus with 319 samples.

Results

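Muscle of F2 mice fell into separate groups by the transcript of Pttg1, and the animals lowest in it are described here. The 79 Pttg1-low arrays were selected on a measured value: all arrays on which the deposited log10 ratio of the Pttg1 probe was under -0.421, of 319 arrays in all. The other 240 arrays are called Pttg1-high. The mice came from an intercross of the strains C57BL/6J and C3H/HeJ. Every animal of both classes was on an ApoE null background and had eaten a high fat "Western" diet from week 8 to week 24 of age, and the series holds females and males. RNA of each animal, in Cy3, was hybridised with a common pool, in Cy5, that held equal portions of RNA from every sample. The labels name no muscle, give no genotype at any other locus, no batch and, for all animals but 1, no sex, so the classes rest on 1 probe and not on a genotype.

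Pttg1 encodes securin, the protein that holds the protease separase inactive until the anaphase-promoting complex marks it for destruction. Separase then cuts the cohesin rings that join sister chromatids. Resting muscle fibres do not divide, so in this tissue cycling cells are a minority. In an F2 intercross the parental alleles segregate among the animals, and genes close together on a chromosome are mostly inherited together. Without genotypes, a shared stretch of chromosome 11 and the level of Pttg1 itself cannot be told apart in these comparisons.

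All values are log2 ratios of an animal to the pool, and all differences are Pttg1-low minus Pttg1-high on the log2 scale. A positive ratio was read as more transcript in the animal, a direction the labels do not state. It came from the Y-linked Eif2s3y, which lay at a median of -5.62 on 164 arrays and at 1.08 on 155 arrays. If 155 of 319 equal portions of the pool carried the gene, carriers would stand 1.04 above the pool. Of the Pttg1-low arrays 40 (50.6%) lay in the lower Eif2s3y cluster, and of the Pttg1-high arrays 124 (51.7%) did. Of 50721 pairs of arrays 3735 correlated under -0.3 across probes, with the lowest r at -0.601. All arrays were compared with a pool of the same animals, and probes are not independent replicates. Across the probes of an array the SD had a median of 0.343 in Pttg1-low (0.245 to 0.995) and 0.363 in Pttg1-high arrays (0.213 to 1.08).

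Pttg1 itself left a wide empty interval between the classes. In Pttg1-low arrays its log2 ratio ran from -3.62 to -2.28 with a median of -3.09 and a mean of -3.06 ± 0.29 (SD, n = 79). In Pttg1-high arrays it ran from -0.52 to 1.41 with a median of 0.19 and a mean of 0.35 ± 0.45 (SD, n = 240). Just inside the limit, which is -1.40 on the log2 scale, lay Pttg1-low arrays at -2.28, -2.32 and -2.34, and just outside it Pttg1-high arrays at -0.52, -0.43 and -0.33. No array lay within 0.1 log10 units of the limit, and the split that maximised the sum of squares between groups moved 0 arrays. The class means differed by -3.41, a ratio of 10.6 for Pttg1-high over Pttg1-low animals. These values chose the classes and are given as a description. In bulk tissue, fewer cells that carry a transcript and less of it per cell cannot be told apart. The gap rests on 1 probe of Pttg1, and whether this probe follows the transcript alike in all animals was not tested.

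**Figure D1:**
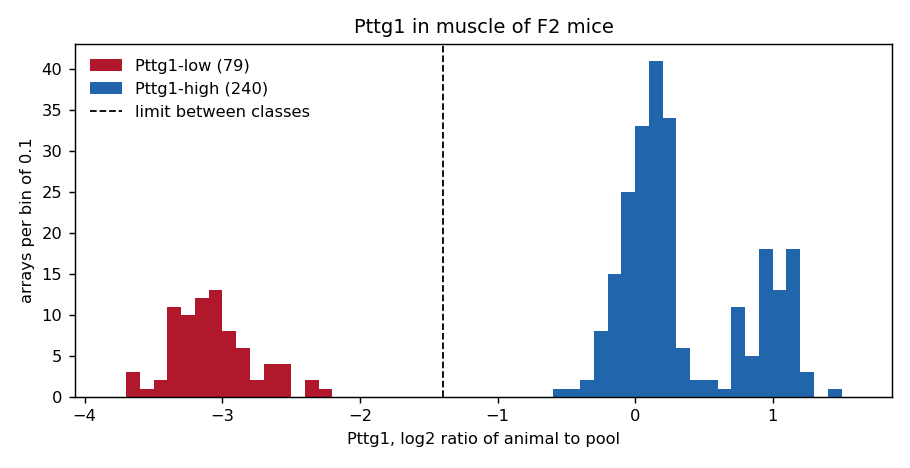
Histogram of the Pttg1 log2 ratio of animal to pool (x axis) over 319 arrays, with the number of arrays per bin of 0.1 on the y axis. The 79 Pttg1-low arrays (red) lie at or below -2.28, the 240 Pttg1-high arrays (blue) lie at or above -0.52 in a main peak near 0.1 and a smaller one near 1, and the dashed line is the limit at -1.40.

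Pttg1-low arrays were 24.8% of all, and the Pttg1-high arrays were not 1 cluster. Dividing them so as to maximise the between-group sum of squares, a choice made after the values were seen, gave 169 middle arrays (53.0% of all) and 71 upper arrays (22.3%). The median log2 ratio was -3.09 in low, 0.10 in middle and 0.98 in upper arrays. The SD was 0.29 in low, 0.18 in middle and 0.17 in upper arrays. The highest middle array lay at 0.50 and the lowest upper array at 0.59, so this interval was narrow beside the 1.77 log2 units between low and middle. On the linear scale the medians were 0.117, 1.07 and 1.98 times the pool. These levels describe the values that chose the classes and support no reading of them. On the log2 scale the middle median was 3.19 above the low and 0.88 below the upper one. The labels give no genotype against which these levels could be set.

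Few probes differed between the classes, and most of those with a known place lay on chromosome 11, which carries Pttg1. With limma across 23189 probes, 115 (0.496%) passed an adjusted p of 0.05, 72 lower (0.31%) and 43 higher (0.185%) in Pttg1-low arrays. Of 1052 probes of other chromosome 11 genes 56 were called (5.32%), 34 lower and 22 higher. Of 11474 probes of genes on other chromosomes 20 were called (0.174%), 13 lower and 7 higher. Their share lower, 65%, was 45.7% of 35 calls with 5 principal components as covariates, 46.9% of 32 without the arrays of outlying SD and 50% of 26 without the arrays highest in lymphocyte markers. Of 10663 probes with no placed gene 39 were called (0.366%), 25 lower and 14 higher. By chromosome, the next highest shares were 0.623% of 803 probes on chromosome 5 and 0.613% of 489 on chromosome 15. On 11 other chromosomes, X and Y among them, limma called 0 probes. At an unadjusted p under 0.05 stood 1959 probes over the whole table.

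On chromosome 11 the calls did not thin out evenly with distance. Distance is given in places, the rank of a gene in the RefSeq gene order of the chromosome counted from Pttg1. Of 14 probes within 25 places 4 were called (28.6%), of 11 at 26 to 50 places 0 were called, with all their differences within 0.13 of 0, of 29 at 51 to 100 places 3 (10.3%) and of 87 beyond 100 and up to 250 places 4 (4.60%). Beyond 250 and up to 500 places 21 of 142 were called (14.8%), and beyond 500 places 24 of 769 (3.12%). Counted by gene, 2 of 12 were called within 25 places, Ttc1 and Ublcp1, the latter on several probes. Beyond 250 and up to 500 places 21 of 120 genes were called. The share differed between the sides, a contrast that was not tested. After Pttg1, 0 of 59 probes were called beyond 100 and up to 250 places and 17 of 70 beyond 250 and up to 500 (24.3%). Before Pttg1, 4 of 28 were called in the nearer of these intervals (14.3%) and 4 of 72 in the farther (5.56%). The most distant called genes were Ogdh, 454 places before, and Wnt9b, 1951 places after Pttg1. Of 25 probes more than 500 places before Pttg1, 0 were called. The gene order comes from the assembly GRCm38.p6 and no coordinates are given, since no source used here names the build behind the probes.

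**Figure D2:**
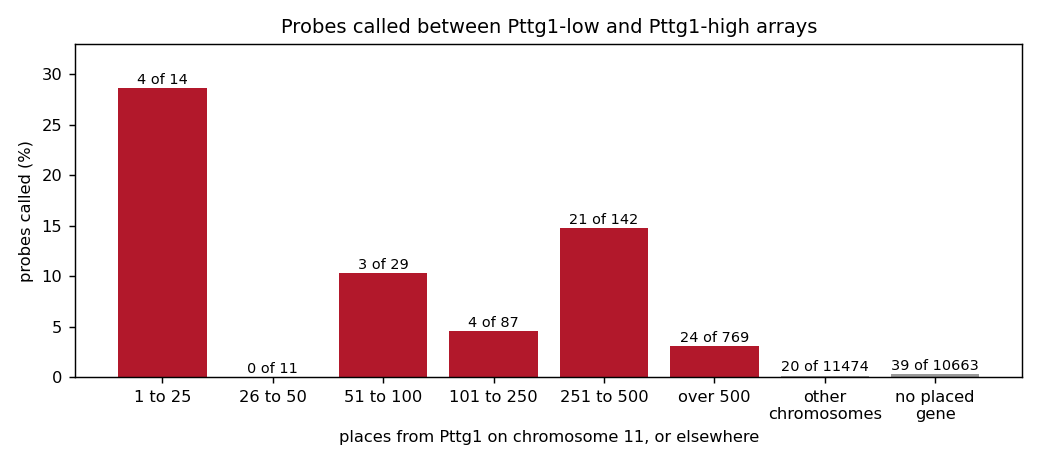
Percent of probes called between Pttg1-low and Pttg1-high arrays (limma, adjusted p under 0.05, y axis) by places from Pttg1 on chromosome 11, for other chromosomes and for probes with no placed gene (x axis). The count called and the count tested stand over each bar. The share is 28.6% within 25 places, 14.8% beyond 250 and up to 500 places and 0.174% on other chromosomes. Counted by gene, 2 of 12 were called within 25 places and 21 of 120 beyond 250 and up to 500 places.

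**Figure D3:**
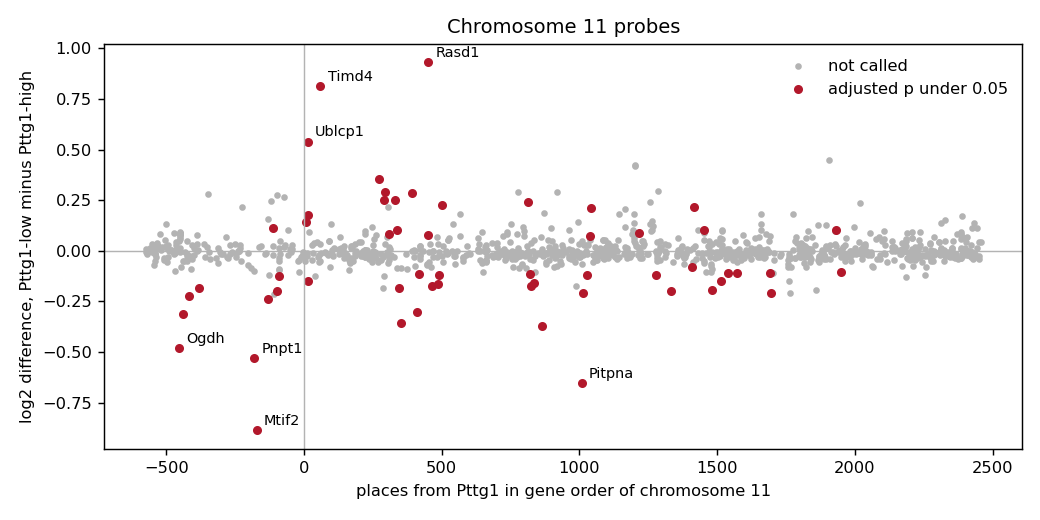
Log2 difference, Pttg1-low minus Pttg1-high (y axis), of each tested chromosome 11 probe against its place in gene order from Pttg1 (x axis). Red points passed an adjusted p of 0.05 and grey points did not. Mtif2, Pnpt1, Pitpna and Ogdh lie lowest and Rasd1, Timd4 and Ublcp1 highest.

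The immediate neighbours of Pttg1 mostly did not pass the test. The 5 nearest measured genes on either side were taken whatever their values. Before Pttg1 these were Atp10b, a phospholipid flippase (difference -0.005 ± 0.017 SE), the GABA receptor subunits Gabrb2 (-0.027 ± 0.037) and Gabra6 (-0.031 ± 0.027), the cyclin Ccng1 (-0.10 ± 0.049) and the dynein-associated factor Nudcd2 (-0.046 ± 0.025). Their limma adjusted p ran from 0.560 to 0.953. After Pttg1, the bile acid binding protein Fabp6 (-0.052 ± 0.022), the adrenergic receptor Adra1b (-0.012 ± 0.017) and the cytokine subunit Il12b (-0.026 ± 0.035) did not pass it either, and Ttc1 and Ublcp1 did. Within 250 places, 11 of 141 probes were called (7.80%, against 0.496% over all probes), and they measured 9 of 114 genes, 6 probes lower and 5 higher.

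Mtif2 and Pnpt1, whose products both act in mitochondria, showed the largest differences toward lower values within 250 places of Pttg1. Mtif2, the initiation factor of mitochondrial translation, lies 171 places before Pttg1. In Pttg1-low arrays its log2 ratio ran from -1.92 to 0.79 with a median of -0.76, and in Pttg1-high arrays from -1.69 to 1.03 with a median of 0.21. The ranges overlapped, but the upper quartile of Pttg1-low arrays (-0.43) lay below the lower quartile of Pttg1-high arrays (-0.01). The difference was -0.89 ± 0.062 (SE), 0.541 times the level of Pttg1-high animals, with a limma adjusted p of 3.05e-32. Pnpt1, the polynucleotide phosphorylase that processes RNA in mitochondria, lies 181 places before Pttg1. It ran from -2.34 to 0.70 with a median of -0.49 in Pttg1-low and from -1.80 to 0.81 with a median of 0.10 in Pttg1-high arrays. Here too the quartiles were apart, at -0.29 for the upper one of Pttg1-low and -0.14 for the lower one of Pttg1-high arrays. The difference was -0.53 ± 0.049 (limma adjusted p = 1.37e-19).

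The other lower genes near Pttg1 differed by less. Bod1, which helps chromosomes attach to the spindle from both poles, had medians of -0.16 in Pttg1-low and 0.08 in Pttg1-high arrays (difference -0.24 ± 0.030, limma adjusted p = 1.05e-10). A second Bod1 probe stood at 0.16 ± 0.051 and did not pass the test (limma adjusted p = 0.229), so the probes of this gene pointed opposite ways. Fbxw11, the substrate-binding part of a ubiquitin ligase, had medians of -0.07 in Pttg1-low and 0.14 in Pttg1-high arrays (difference -0.20 ± 0.033, limma adjusted p = 2.11e-06). Npm1, the nucleolar protein nucleophosmin, was called on 1 of its 6 probes (-0.13 ± 0.030, limma adjusted p = 0.0110), with the other 5 between -0.09 and 0.02. For Fbxw11 and the called Npm1 probe the difference was smaller than the SD across arrays of either class, and for Bod1 it lay between the SD of 0.256 in Pttg1-low and 0.225 in Pttg1-high arrays.

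Ublcp1, Ttc1, Timd4 and Mpg were higher in Pttg1-low arrays on the probe with the smallest p of each gene. Ublcp1, a phosphatase that acts on the proteasome in the nucleus, lies 14 places after Pttg1 and was measured by 3 probes. The strongest ran from -2.47 to 0.97 with a median of 0.43 in Pttg1-low and from -2.10 to 0.53 with a median of -0.16 in Pttg1-high arrays (difference 0.54 ± 0.058, limma adjusted p = 6.18e-15). Its lower quartile in Pttg1-low arrays (0.22) lay above the upper quartile in Pttg1-high arrays (0.11). The other 2 probes gave 0.18 ± 0.027 and -0.15 ± 0.029 (limma adjusted p = 7.63e-08 and 0.000207), so the gene has no single direction in these data. Ttc1, a protein with tetratricopeptide repeats, lies 9 places after Pttg1 and had medians of 0.16 in Pttg1-low and 0.00 in Pttg1-high arrays (difference 0.14 ± 0.022, limma adjusted p = 3.35e-07). Mpg, a DNA repair glycosylase, had medians of 0.05 in Pttg1-low and -0.04 in Pttg1-high arrays (difference 0.11 ± 0.026, limma adjusted p = 0.00537).

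Timd4, the receptor with which macrophages bind phosphatidylserine on dying cells, varied most widely of the called genes near Pttg1, with an SD of 1.38 in Pttg1-low and 1.31 in Pttg1-high arrays. Its ratio was above 0 on 17 of 79 Pttg1-low arrays (21.5%) and on 38 of 240 Pttg1-high arrays (15.8%). It ran from -2.97 to 2.42 with a median of -1.40 in Pttg1-low and from -3.47 to 2.46 with a median of -2.12 in Pttg1-high arrays. The difference was 0.81 ± 0.17 (limma adjusted p = 0.00105) on 1 probe, and a second probe stood at -0.05 ± 0.065 (limma adjusted p = 0.846). Without the 57 arrays highest in lymphocyte markers, 19 Pttg1-low (24.1%) and 38 Pttg1-high (15.8%), the difference was 0.65 (limma adjusted p = 7.50e-14). With the first principal component as a covariate it was 0.52. Macrophage markers, whose values are given with the other cell types, also had positive differences without passing the test, and their part in this difference was not tested.

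**Figure D4:**
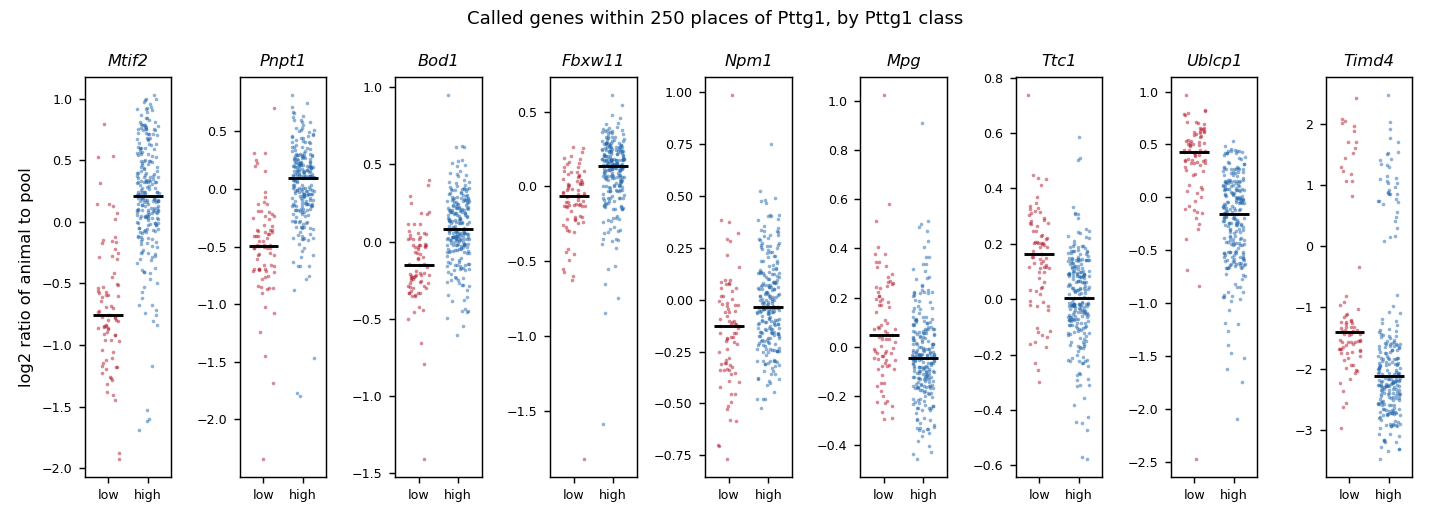
Log2 ratio of animal to pool (y axis, own scale for each gene) on each array for the 9 called genes within 250 places of Pttg1, with Pttg1-low arrays (red) left of Pttg1-high arrays (blue) and black lines at the medians. For each gene the probe with the smallest p is drawn. Mtif2, Pnpt1 and Ublcp1 have quartiles that do not overlap, and Timd4 lies above 0 on 17 Pttg1-low and 38 Pttg1-high arrays.

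Farther along chromosome 11, Pitpna and Ogdh showed the largest differences toward lower values among the genes named. Pitpna, which carries phosphatidylinositol between membranes, lies 1008 places after Pttg1. Its log2 ratio ran from -1.14 to 0.92 with a median of -0.74 in Pttg1-low and from -1.98 to 1.00 with a median of 0.15 in Pttg1-high arrays. The difference was -0.65 ± 0.065 (limma adjusted p = 2.67e-17). Ogdh, an enzyme of the citric acid cycle, ran from -1.27 to 0.73 with a median of -0.45 in Pttg1-low and from -1.17 to 0.83 with a median of 0.14 in Pttg1-high arrays (difference -0.48 ± 0.053, limma adjusted p = 2.41e-14). The citrate transporter Slc13a5 (-0.37 ± 0.045), the ubiquitin ligase Trim11 (-0.30 ± 0.034) and Atpaf2, an assembly factor of the mitochondrial ATP synthase (-0.17 ± 0.022), were lower too, with limma adjusted p of at most 1.11e-10.

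Of the genes higher in Pttg1-low arrays on the rest of the chromosome, Rasd1 differed most among those named. Rasd1, a small G protein induced by glucocorticoids, lies 452 places after Pttg1. It ran from -2.62 to 2.71 with a median of -0.12 in Pttg1-low and from -3.18 to 1.53 with a median of -1.06 in Pttg1-high arrays. The difference was 0.93 ± 0.13 (limma adjusted p = 2.95e-09), a ratio of 1.91, with SDs of 0.98 in Pttg1-low and 1.00 in Pttg1-high arrays. Tnip1, which restrains NF-kB signalling, was higher by 0.25 ± 0.027, Ccdc69 by 0.29 ± 0.038, the actin-binding profilin Pfn1 by 0.24 ± 0.033 and Fam183b by 0.29 ± 0.044. Their limma adjusted p was at most 2.63e-07.

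The middle and upper Pttg1 levels also differed at these genes, given here as medians without a test because the levels were set after the values were seen. Shifts along Pttg1 within Pttg1-high arrays were not particular to these genes. Without covariates, 9960 of 23189 probes (43%) had a called slope on Pttg1 there, as described below. Mtif2 had medians of -0.76 in low, 0.10 in middle and 0.67 in upper arrays. Pnpt1 had -0.49 in low, -0.01 in middle and 0.30 in upper arrays. The strongest Ublcp1 probe had 0.43 in low, 0.01 in middle and -0.57 in upper arrays. The called Timd4 probe had -1.40 in low, -1.92 in middle and -2.59 in upper arrays. Rasd1 had -0.12 in low, -0.80 in middle and -1.79 in upper arrays, and Ogdh -0.45, 0.07 and 0.44 in the same order. At each of these 6 genes, taken from the called chromosome 11 probes, the middle median lay between the other medians. The same held at all 56 called probes of chromosome 11. Calls and levels come from the same arrays and Pttg1 values, and no count over all probes was made, so this is a description only.

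**Figure D5:**
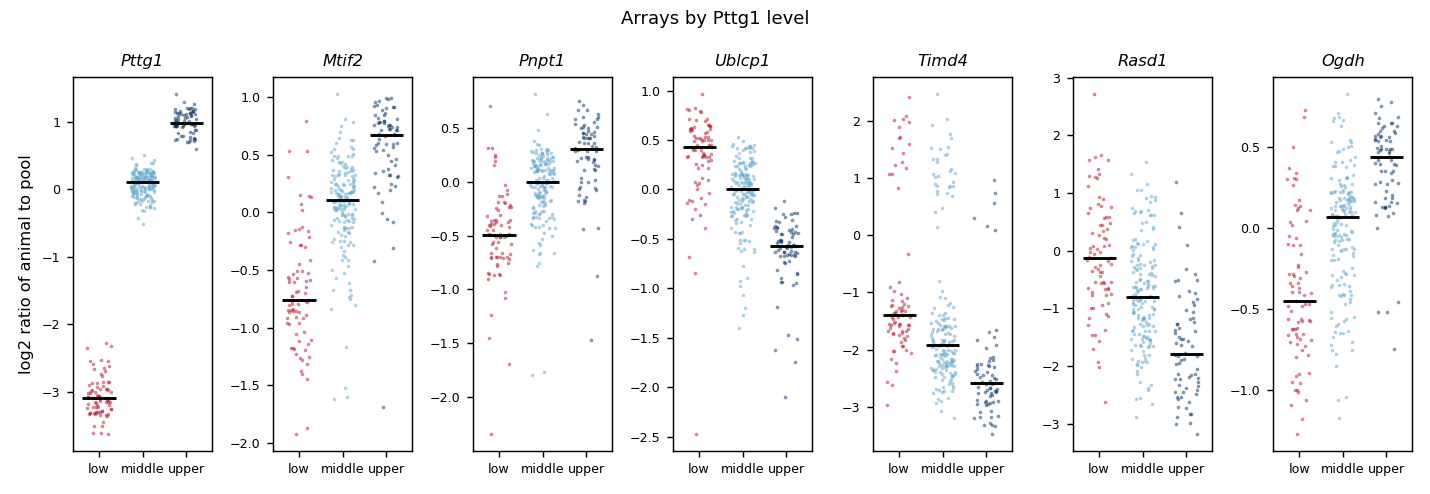
Log2 ratio of animal to pool (y axis, own scale for each gene) on each array for Pttg1 and 6 chromosome 11 genes, by low, middle and upper Pttg1 level (79, 169 and 71 arrays), with black lines at the medians. On the probe drawn, the called one with the smallest p of each gene, Mtif2, Pnpt1 and Ogdh step up with the Pttg1 level. Ublcp1, Timd4 and Rasd1 step down. Another called Ublcp1 probe, not drawn, steps up, with medians of -0.126, -0.005 and 0.093, and a second Timd4 probe was not called.

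Within the Pttg1-high arrays alone, the slope of each probe on the Pttg1 log2 ratio was fitted across all probes, a comparison added after the data were seen. It shares the 240 Pttg1-high arrays with the comparison of the classes and uses the Pttg1 values that set the classes and levels. The slopes are therefore a description and give no separate support for the calls between the classes. Without covariates it called 9960 of 23189 probes (43%), 534 of them among the 1052 on chromosome 11. The first 5 principal components were computed over all 319 arrays without the probes placed on chromosome 11. They held 44.3% of the variance of the remaining tested probes, those with no placed gene among them. With these components as covariates, the fit called 91 probes (0.392%). Of these, 38 were among the 1052 chromosome 11 probes (3.61%), 13 among the 141 within 250 places (9.22%) and 14 among the 11474 on other chromosomes (0.122%). These slopes are per log2 unit of Pttg1. The class differences were fitted without covariates between classes whose Pttg1 means differed by -3.41, so the sizes are not comparable. A positive slope and a negative class difference both mean lower values at lower Pttg1. The strongest Ublcp1 probe had a slope of -0.62 ± 0.031 SE per log2 unit of Pttg1 (limma adjusted p = 9.13e-48), beside a class difference of 0.54. Mtif2 had a slope of 0.53 (limma adjusted p = 4.21e-17) beside a class difference of -0.89, and Pnpt1 one of 0.37 (limma adjusted p = 2.19e-16) beside -0.53. Ttc1 had a slope of -0.17 (limma adjusted p = 5.05e-14) beside 0.14, and Trim11 one of 0.25 (limma adjusted p = 7.64e-13) beside -0.30. Pitpna, farther off, had a slope of 0.32 (limma adjusted p = 0.0121) beside -0.65.

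On other chromosomes the differences were small. The 20 called probes measured 18 genes and differed by 0.07 to 0.25 in size. Coa4, an assembly factor of cytochrome c oxidase on chromosome 7, had medians of -0.06 in Pttg1-low and 0.09 in Pttg1-high arrays (difference -0.16 ± 0.021, limma adjusted p = 1.88e-10). The growth factor Gdnf on chromosome 15 had medians of 0.13 in Pttg1-low and 0.03 in Pttg1-high arrays (difference 0.12 ± 0.021, limma adjusted p = 1.33e-05). Gm15772 on chromosome 5 was called on 2 probes of opposite direction, at 0.20 ± 0.029 and -0.14 ± 0.032. Lower were also Tmem150b, the transcription factor Bhlhe23, the clock-controlled transcription factor Tef, the collagen cross-linking enzyme Loxl1, the vomeronasal receptor Vmn2r104, the stress kinase Mapk10, Tbata, the keratin Krt1 and the axon guidance receptor Plxna4, from -0.14 to -0.08. Pfdn6 and Nrgn, at -0.08 each, complete the calls and were named after their values were seen. Higher were also the phosphatase Ptpn9, the lectin Fcna, the dynein light chain Dynll1 and the matrix protein Tgfbi, from 0.07 to 0.25. With the first principal component as a covariate the calls of Ptpn9, Fcna, Dynll1, Tgfbi, Krt1 and Plxna4 ended, at limma adjusted p from 0.0549 to 0.103. In the slope within Pttg1-high arrays with 5 components, Coa4 (0.10, limma adjusted p = 0.00177), Gdnf (-0.13, 1.46e-09), Tmem150b (0.08, 1.07e-05) and both Gm15772 probes (-0.16, 4.70e-05 and 0.11, 0.0104) passed the threshold, and the other genes named here did not. As these slopes use the Pttg1 values that set the classes, they are a description and neither strengthen nor weaken any of these calls.

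Among the probes with no placed gene stood some of the largest differences. The probe 10024395194 was lower by 1.11 in Pttg1-low arrays (limma adjusted p = 2.31e-25) and the probe 10024412288 had the smallest p of all (difference -0.57, limma adjusted p = 2.84e-32). Of the 39, 5 carry a gene symbol in the platform annotation that could not be placed through the mouse table: CCDC85A (-0.69), FLCN (-0.33), TMIGD1 (0.31), Prpf8 (0.22) and CCDC104 (0.17). These were named after their values were seen. Probes of the same symbols that could be placed on chromosome 11 were not called, with Ccdc85a, within 250 places of Pttg1, at -0.08 (limma adjusted p = 0.669) and Prpf8 at -0.009.

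Genes that work with securin did not pass the test. Of 20 probes of 15 measured genes of the securin and separase pathway 0 were called by limma. An unadjusted p under 0.05 was reached by 0 of them. Over all probes 0.496% were called and 1959 of 23189 had an unadjusted p under 0.05. With so few probes in these lists, 0 calls do not set their genes apart from the other probes. Separase itself, Espl1, stood at 0.071 ± 0.039 and 3 probes of Cdc20, which activates the anaphase-promoting complex against securin, between -0.03 and 0.09. The cohesin subunit Stag1 stood at 0.039 ± 0.033, Smc1a at 0.015 ± 0.023 and the 2 Smc3 probes at -0.01 and 0.00. The median difference over the pathway was 0.009, against -0.007 over all probes. Of 19 spindle checkpoint probes 0 were called and 0 had an unadjusted p under 0.05 (median difference 0.023), with the kinase Bub1 at -0.030 ± 0.018 and Mad2l1 at 0.039 ± 0.023. Of 37 cell cycle probes 0 were called and 3 had an unadjusted p under 0.05 (median 0.031). These were Mcm5 (0.071 ± 0.033), a subunit of the replicative helicase, and the cyclins Ccne1 (-0.025 ± 0.012) and Ccne2 (-0.083 ± 0.039), which act at the start of DNA replication. Of 11 probes of genes reported elsewhere as responsive to Pttg1, 0 were called and 2 had an unadjusted p under 0.05. Vegfa, the vascular growth factor, stood at -0.12 ± 0.035 (limma adjusted p = 0.0791) and its receptor Kdr at -0.11 ± 0.050 (limma adjusted p = 0.538). Myc stood at -0.014 ± 0.061, Fgf2 at -0.025 ± 0.021 and Cdkn1a at 0.039 ± 0.055. Vegfa passed under quantile normalization (-0.14, limma adjusted p = 0.0457).

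Over all lists, the pathway lists included, 2 of 279 probes were called (0.717%, against 0.496% over all probes), both of them in lists of cell type markers. Ccr7, a lymphocyte chemokine receptor that lies on chromosome 11 itself, was lower by 0.11 (limma adjusted p = 0.0336), and 12 of the 14 lymphocyte probes had positive differences. Krt1 was the other (-0.081 ± 0.020, limma adjusted p = 0.0209), of 13 keratinocyte probes. Macrophage markers did not pass the test, but all 14 probes had positive differences, of 0.002 to 0.38 with a median of 0.21. An unadjusted p under 0.05 was reached by 11 of them, against 1959 of 23189 over all probes, and the smallest limma adjusted p was 0.250. The macrophage score, the mean log2 ratio of these probes, ran from -1.66 to 1.34 with a median of -0.33 in Pttg1-low and from -1.68 to 1.67 with a median of -0.57 in Pttg1-high arrays. With 5 principal components as covariates the median difference of these probes was 0.06, and 4 of the 14 had an unadjusted p under 0.05. Without the arrays highest in lymphocyte markers the median difference was 0.177, and 9 of the 14 had an unadjusted p under 0.05. The part of macrophage content in the calls was not tested. Of the remaining lists, MHC class II (5 probes), neutrophil and marrow (11), erythroid (5), adipocyte (9), slow fibre (14), interferon response (15), extracellular matrix (12), liver (8), glycolysis (62), oxidative phosphorylation (4), and muscle-defining genes (6) had 0 calls, with median differences between -0.09 and 0.09. An unadjusted p under 0.05 was reached by 2 MHC class II and 2 extracellular matrix probes and by 1 each of the slow fibre, muscle-defining, interferon and glycolysis lists. Sparc, a collagen-binding matrix protein, stood at 0.22 ± 0.063 (limma adjusted p = 0.106) and passed without the arrays of outlying SD (0.24, limma adjusted p = 0.0233). No fast fibre gene was tested. Ratios to a pool give no levels, so they cannot show whether the tissue carries its defining transcripts. Kdm5d and Eif2s3y stood at 0.04 ± 0.25 and 0.01 ± 0.42.

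The called genes near Pttg1 were not more uniform in the Pttg1-low class. Over the 11 called probes within 250 places the median SD across arrays was 0.276 in Pttg1-low and 0.225 in Pttg1-high arrays, and over all tested probes 0.234 and 0.222 in the same order. Animal numbers were unevenly represented. The share of Pttg1-low arrays was lowest among numbers 241 to 300, with 9 of 59 (15.3%), and highest among numbers 61 to 120, with 20 of 48 (41.7%). With blocks of 40 neighbouring animal numbers in the fit, 54 of the 56 chromosome 11 calls and 16 of the 20 calls on other chromosomes were kept. The calls of Plxna4 (limma adjusted p = 0.0687), Fcna (0.129), Tgfbi (0.113) and Ccr7 (0.116) ended.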

How the data were processed

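Per the labels, muscle RNA of F2 animals was hybridised in 2 colours against a common pool, on 319 arrays. The series design gives 319 mice and the sample text 330. The deposited table holds 23382 probes as log10 ratios, made by the authors with steps that no source used here gives. The base was read from the limits of the values at -2 and 2, and the values were converted to a log2 scale. Probe names came from the platform annotation and were kept for the 12645 probes that the RefSeq table of GRCm38.p6 could place. That table also gave the gene order. The test took probes measured on 80% of arrays or more (192 were left out, as was the 1 Pttg1 probe), with limma 3.58.1 in R 4.3.3: lmFit and eBayes on Pttg1-low minus Pttg1-high, no covariates, Benjamini-Hochberg adjustment over 23189 probes, two-sided, threshold 0.05. Blanks were treated as missing. The fit was tested on simulated data made from shuffled classes with known shifts added. The labels do not pair or batch the arrays, and each array was taken as 1 animal. Of the pair that shares animal number 227, neither was Pttg1-low.

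The genes named were the 5 nearest measured on each side of Pttg1, then those of smallest p among the calls: 10 in each direction within 250 places and on other chromosomes, 5 in each direction on the rest of chromosome 11, and up to 4 members of each of 20 lists (278 genes, 192 tested). Members named outside this rule were chosen for their role. Members and lists were chosen with earlier results of these data known. Alternatives concerned scaling, covariates, missing values, limits of the scale, the class limit, the test and the arrays used. For arrays no molecule count exists, so their number limits the precision.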

Additional observations from a re-analysis of the deposited data

How the results depend on the processing

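The calls on chromosome 11 numbered 51 to 70 over 16 alternatives, against 56, and those within 250 places of Pttg1 11 to 16, against 11. The lowest count came from requiring a value on every array, where only 51 of the 56 were tested and all 51 were kept. Without the arrays highest in lymphocyte markers 57 were called, and 51 of the 56 were kept. The 11 near calls were made again in every alternative. The total of 115 calls was 177 with quantile normalization and otherwise 103 to 168. Of the calls 62.6% were lower in Pttg1-low arrays, against 51.8% with 5 principal components. Calls on other chromosomes numbered 47 with quantile normalization, 35 with 5 components and 32 without the 20 arrays of outlying SD, the last chosen after seeing the data, against 20. Of the 20, 14 were called again with 5 components and 11 with the first alone. Of the 2 called list probes, Krt1 and Ccr7, 0 were called with the first component and 0 with 5 components, where 1 other list probe was called. With blocks of 40 animal numbers, and without the arrays highest in lymphocyte markers, 1 was called, Krt1. The cause of these changes was not tested. No named gene that was called changed sign. The calls of Krt1, Plxna4, Ptpn9, Fcna, Dynll1, Tgfbi and Ccr7 ended with the first component as a covariate. Classes set by the best split, and arrays near the limit left out, gave the same classes. No paired analysis was possible because the labels pair no arrays. The limits are 1 probe for most genes, probes of a gene that disagree, no genotype to set beside the Pttg1 classes, and 10663 tested probes with no place.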
